A study of Ovis aries with 32 samples.

Results

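The genes described here build and run the actin cytoskeleton of the cell, and they were listed by name, with earlier results of these data known. The list holds 44 genes: actins, the proteins that coat actin filaments, nonmuscle and smooth muscle myosin II chains, filament crosslinkers, focal adhesion proteins, regulators of monomer turnover, serum response factor (SRF) with other control genes, and vimentin. Of these, 41 had rows under their name in the table, which lists 21271 gene identifiers, and CNN2, CNN3 and TPM3 had none and are named only. All 41 reached a summed value of at least 10 in at least 4 libraries, as did 12737 genes in all, and they comprise 99 transcripts.

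Preadipocytes from the perirenal fat of sheep fetuses, and adipocytes differentiated from them in culture, were profiled by RNA sequencing to ask how growth restriction and sex bear on differentiation. There were 8 groups of 4 libraries. MC and FC were preadipocytes of male and female control fetuses, MFGR and FFGR those of male and female fetuses with fetal growth restriction (FGR), and MCD, FCD, MFGRD and FFGRD were the differentiated cells of the same 4 kinds of fetus. Growth-restricted fetuses came from Columbia-Rambouillet ewes kept at high ambient temperature for part of pregnancy, which causes placental insufficiency, and control fetuses from pair-fed ewes kept at a lower temperature. All fetuses were singletons. The labels do not say which fetus or culture lies behind a library, so a p-value measures the spread between these libraries, which may in part be technical. In cultures, fewer cells of a kind and less RNA per cell cannot be told apart.

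Actin filaments are coated by tropomyosins, calponins and transgelin, bundled by plastins, alpha-actinins and filamins, and pulled by myosin II, and they anchor at focal adhesions through talin, vinculin and zyxin. The coactivators MRTFA and MRTFB bind SRF, the transcription factor of many of these genes, and move to the nucleus when free actin monomers are few. Fibroblast-like preadipocytes carry stress fibres, which are known to be taken apart as cells round up and fill with lipid, and a high content of smooth muscle actin marks myofibroblasts and mural cells.

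Several facts of the libraries bear on what follows. Values are DESeq2-normalized reads (no longer whole reads), here summed over the transcripts of a gene, and their sum per library ran from 9.52 M to 21.22 M (mega), so that the depth in reads is not known exactly. The slope of a library's log2 values on the log10 genomic span of its genes, called the span slope, was below 0.3 in 9 libraries and at least 0.50 in the other 23. These were MFGR replicate 1, FC replicate 2 and FFGR replicates 2 and 3 before differentiation, and MCD replicates 2 and 4, FCD replicate 2, MFGRD replicate 1 and FFGRD replicate 3 after it. Of 5 adipocyte markers all 5 were called higher after differentiation (FABP4 by 9.55 on the log2 scale, adjusted p = 1e-10). FCD replicate 4 held little of them: its markers summed to 308.7, below the highest preadipocyte library (1374.6). The 6 preadipocyte and fibroblast markers summed to 119593 to 582351 before differentiation and to 36629 to 619251 after it. Of these DCN (-1.28, adjusted p = 2.93e-05), LUM (-0.61, adjusted p = 0.0179) and PDGFRB (-0.82, adjusted p = 0.0219) were called lower and THY1 (1.65, adjusted p = 0.000603) higher, and COL1A1 (-0.76) and PDGFRA (-0.20) were not called. The part of such cells in the differences given below was not tested. Skeletal muscle markers did not exceed 35.8 in sum in any library, and none of the 6 passed the filter.

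A large share of these genes was lower after differentiation, and none was called higher. Averaged over the 4 kinds of fetus, 18 of 41 (43.9%) were called lower and 0 higher, where a call needs a limma adjusted p below 0.05 and a fold change above 1.5. Among all 12737 genes tested, 14.8% were called lower, 12.4% higher and 27.2% either way. The median log2 fold change was -0.58 over the 41 genes and 0.03 over all genes, and 33 of the 41 lay below 0, against 47.6% of all genes. Since the list was drawn up with results known, these counts are a description. Falls were seen in 3 of 4 actins, 3 of 8 thin filament regulators, 3 of 5 myosin II genes, 3 of 7 crosslinkers, 3 of 7 focal adhesion proteins and neither of the monomer turnover genes, and in ARHGAP28, MRTFA and vimentin. All 18 lay below 0 in each of the 4 kinds of fetus taken alone, as did 26 of the 41 in all. The 18 were chosen by the mean of these same 4 responses, so their shared sign is no separate evidence. The share of all genes below 0 in all 4 kinds is not given here. Every log2 fold change was taken after adding 1 to the value, differentiated minus preadipocyte, which understates the change of genes with low values.

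**Figure D1:**
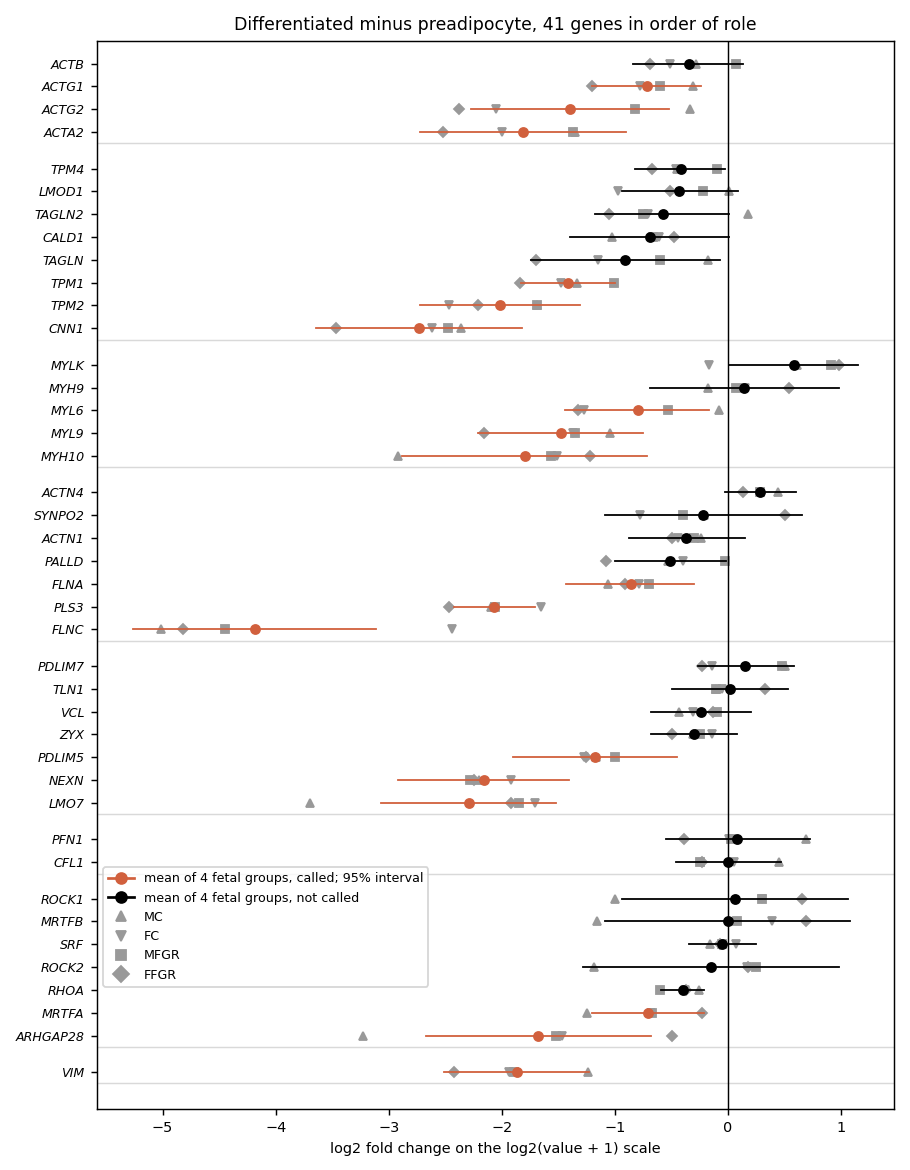
Log2 fold change (horizontal axis, log2(value + 1) scale) of each of the 41 genes, differentiated minus preadipocyte, in order of role; circles and bars are the mean of the 4 kinds of fetus with its 95% interval, orange where called, and grey symbols are the 4 kinds of fetus. The 18 orange genes lie left of 0, from FLNC at -4.18 to MRTFA at -0.71, and no gene is called to the right of 0.

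Among the actins, ACTA2 (chromosome 22, 12345692 to 12362903 in Oar_rambouillet_v1.0, the build of all positions given here) encodes the smooth muscle alpha actin of contractile stress fibres. Its values in replicates 1 to 4 were 4622, 20923, 4827 and 5664 in MC, 21718, 14686, 8649.6 and 16877 in FC, 10875, 5095, 18044 and 5105 in MFGR and 7512, 49014, 22456 and 12819.6 in FFGR. After differentiation they were 2526, 10328, 1075 and 2232 in MCD, 2502, 3869, 2179 and 8574 in FCD, 12810.3, 3396, 4598 and 564 in MFGRD and 499.8, 5384, 14008 and 2603 in FFGRD. Levels spread widely within every group, and the groups overlapped in MC, MFGR and FFGR but not in FC, where every differentiated library lay below every preadipocyte library. The mean log2 fold change was -1.81 ± 0.44 (SE), adjusted p = 0.00209, a 3.51-fold fall. ACTG2, the smooth muscle gamma actin, fell by 1.40 (SE 0.43, adjusted p = 0.0122) and the cytoplasmic gamma actin ACTG1 by 0.72 (SE 0.24, adjusted p = 0.0187). ACTB, the cytoplasmic beta actin, stood at 32354, 45586 and 102533 (lowest, median and highest of the 16 preadipocyte libraries) against 15082, 40847 and 98009.5 in the 16 differentiated libraries, and its difference of -0.35 (95% interval -0.84 to 0.13, adjusted p = 0.28) did not pass the test. The 4 actins are closely similar proteins, and how well reads were told apart among their transcripts was not tested.

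The thin filament regulators held some of the largest falls. CNN1 (chromosome 5, 14195252 to 14203107) encodes calponin 1, which binds actin and restrains myosin. It stood at 1573, 4818, 1283 and 1278 in MC, 5075, 3320.4, 1734 and 3273 in FC, 2238, 1109, 3241 and 2269.8 in MFGR and 2082, 9467, 4080.2 and 2034 in FFGR. In the differentiated cells its values were 611, 1504, 70.6 and 272 in MCD, 285, 852, 289.5 and 949 in FCD, 1251, 431, 450.0 and 76.8 in MFGRD and 48.6, 578, 1329 and 282 in FFGRD. The differentiated libraries were lower in every kind of fetus with no overlap apart from MC, in which MCD replicate 2 lay above 2 preadipocyte libraries, and MFGR, in which MFGRD replicate 1 lay above MFGR replicate 2. The mean log2 fold change was -2.73 ± 0.44 (SE), adjusted p = 2.16e-05, or 6.64-fold.

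TPM2 (chromosome 2, 55568910 to 55576356), a tropomyosin that lies along the actin filament, stood at 25094, 58209.7, 30428 and 30937 in MC, 64523, 60739, 27374 and 41750.2 in FC, 49776, 30105, 47113 and 30468 in MFGR and 32695, 108081, 64526 and 27078 in FFGR. After differentiation it was at 13912, 9361, 8108 and 11927 in MCD, 3491, 6890.2, 8838 and 22549 in FCD, 46231, 16285, 8711 and 3026 in MFGRD and 2951, 16358, 34001 and 8114 in FFGRD. Its stages did not overlap in MC or FC, while MFGRD replicate 1 and FFGRD replicate 3 lay above preadipocyte libraries of their kind. It changed by -2.02 ± 0.34 (SE), adjusted p = 4.01e-05, or 4.04-fold. TPM1, the other tropomyosin that fell, changed by -1.42 ± 0.20 (SE), adjusted p = 3.89e-06, and its differentiated libraries lay below all preadipocyte libraries in each of the 4 kinds of fetus. TPM4, a cytoskeletal tropomyosin, had a difference of -0.42 (adjusted p = 0.0945).

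TAGLN (chromosome 15, 30699087 to 30704257) encodes transgelin, a calponin-related protein of stress fibres and an early marker of smooth muscle. Its preadipocyte values were 4455, 13470.3, 4179 and 4493 in MC, 15038, 13203, 5115 and 8023 in FC, 10212, 3826, 10844 and 6847 in MFGR and 8411, 42211, 15892 and 5664 in FFGR. The differentiated libraries held 4217, 21752, 1744 and 4276 in MCD, 2573, 5468, 3381 and 7047 in FCD, 12359.9, 5889, 5052 and 1487 in MFGRD and 886, 6155, 22895 and 2303 in FFGRD. The highest differentiated value of 3 kinds of fetus, MCD replicate 2, MFGRD replicate 1 and FFGRD replicate 3, lay in libraries of low span slope, and the stages overlapped in every kind of fetus. Its difference of -0.91 ± 0.41 (SE) did not pass the test (adjusted p = 0.0882). With the replicate number as a block in all 4 kinds of fetus, it did (adjusted p = 0.0178). That block includes FFGR, where the numbers were not taken to pair the stages. TAGLN was also called without the 9 libraries of low span slope, as given further on. CALD1 (-0.69, adjusted p = 0.125), caldesmon, was likewise called with the block (adjusted p = 0.0318) and not in the same fit without it. TAGLN2 (-0.58, adjusted p = 0.13), the related transgelin of many cell types, and LMOD1 (-0.43, adjusted p = 0.213), a leiomodin that starts new filaments in smooth muscle, were not called in either fit. Without the 9 libraries of low span slope, and with the span slope as a covariate, CALD1 and TAGLN2 were called as well.

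**Figure D2:**
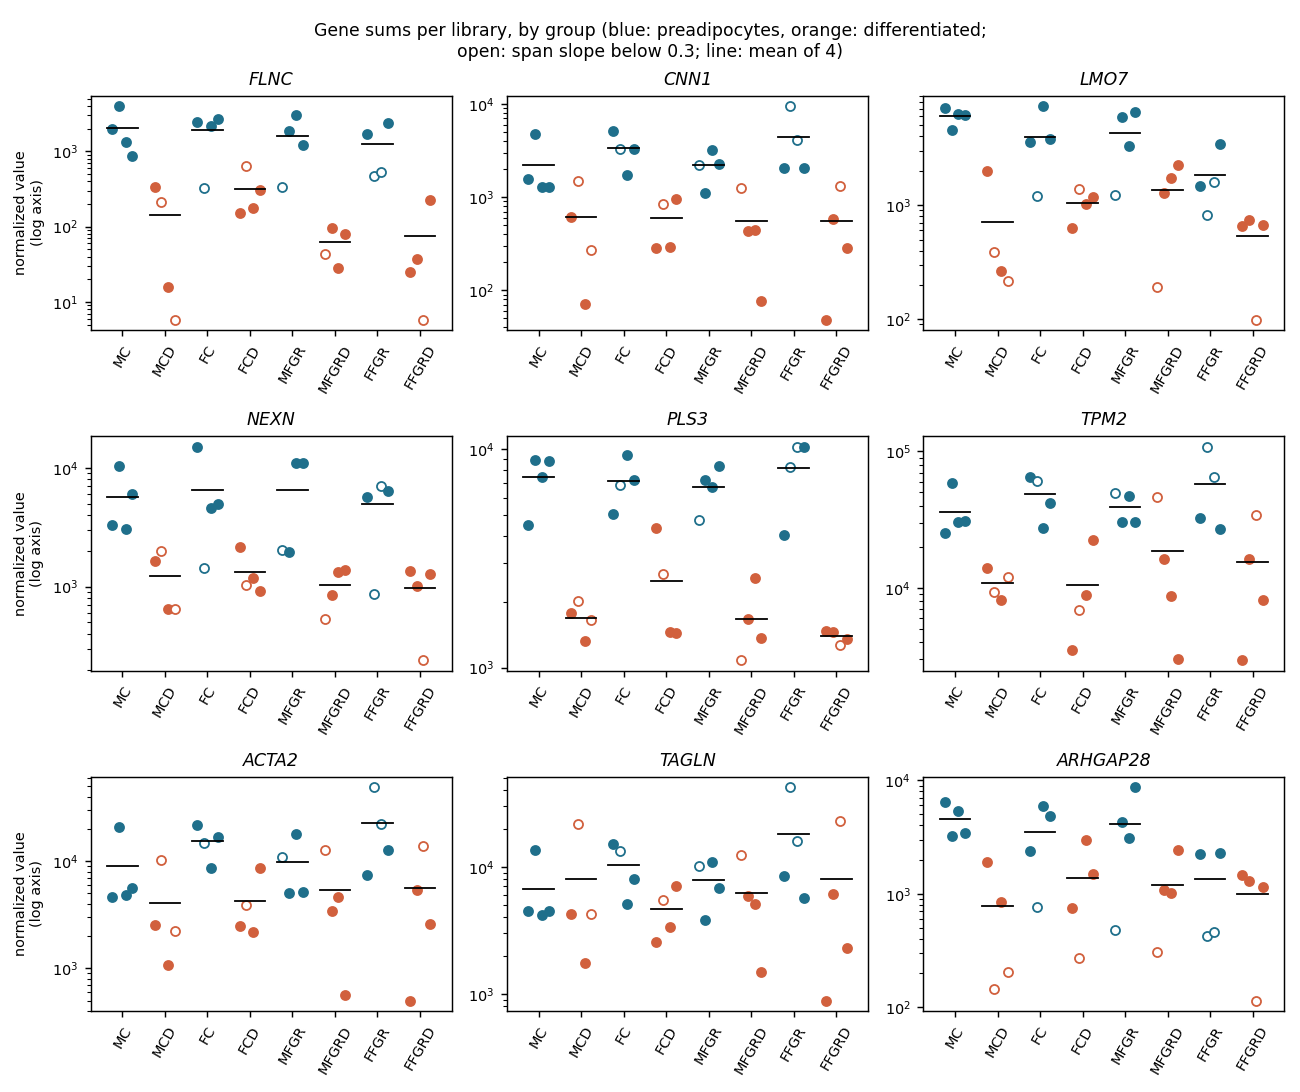
Normalized value per library (vertical axes, log scale) of 9 genes in the 8 groups (horizontal axes), blue for preadipocytes and orange for differentiated cells, open circles for the 9 libraries of span slope below 0.3, and a line at the mean of 4. PLS3 shows the least overlap between stages, while ACTA2, TAGLN and TPM2 hold open orange circles as high as the preadipocytes.

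Of the myosin II genes, the heavy chain MYH10 (nonmuscle myosin IIB) and both light chains fell, and the heavy chain MYH9 (nonmuscle myosin IIA) did not change by the test. MYH10 stood at 4029, 43276 and 59751 (lowest, median and highest of the 16 preadipocyte libraries) against 886, 13111 and 20874 in the 16 differentiated libraries, a change of -1.80 ± 0.53 (SE), adjusted p = 0.0089. MYH9 stood at 4938, 41770.0 and 64066 before differentiation and 5996, 36883 and 60020.4 after it, a difference of 0.14 (95% interval -0.69 to 0.98, adjusted p = 0.831). The regulatory light chain MYL9 changed by -1.48 ± 0.36 (SE), adjusted p = 0.00189. For the essential light chain MYL6 the change of -0.80 was just past the threshold (adjusted p = 0.0472), and it lost its call in 23 of the 32 fits that left out 1 library. MYLK, the kinase that phosphorylates the regulatory light chain, stood at 4515, 8013 and 17799.9 before differentiation and 1689.6, 12991 and 30837 after it, the highest rise among the 41 genes at 0.58 (adjusted p = 0.112), which did not pass the test.

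FLNC and PLS3 led the crosslinkers. FLNC (chromosome 4, 101631695 to 101660085) encodes filamin C, the filamin best known from muscle. Its preadipocyte libraries held 1968, 3976, 1315 and 862 in MC, 2493, 323, 2178 and 2677 in FC, 342, 1883, 2998 and 1216 in MFGR and 1695, 471, 529 and 2358 in FFGR. The differentiated ones held 333, 214, 15.9 and 5.84 in MCD, 152, 648, 175 and 307 in FCD, 42.9, 95.7, 28.6 and 80.1 in MFGRD and 25.1, 37.2, 5.84 and 229 in FFGRD. Every differentiated library lay below every preadipocyte library in MC, MFGR and FFGR, and in FC 1 differentiated library (replicate 2, at 648) lay above FC replicate 2 (at 323). The change of -4.18 ± 0.52 (SE), adjusted p = 5.53e-07 was the largest fall among the 41 genes, 18.1-fold. By kind of fetus it was -5.01 in MC, -2.44 in FC, -4.45 in MFGR and -4.82 in FFGR.

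PLS3 (chromosome X, 127422867 to 127521914) encodes plastin 3, which packs actin filaments into bundles. It stood at 4507, 8944, 7417 and 8828 in MC, 5051, 6848, 9425 and 7219 in FC, 4732, 7209.8, 6673 and 8341 in MFGR and 4024, 8246, 10197 and 10242 in FFGR. Differentiated cells had 1777, 2024, 1327 and 1643 in MCD, 4372, 2673, 1461 and 1438 in FCD, 1083, 1662, 2578 and 1365 in MFGRD and 1469, 1454, 1273 and 1357 in FFGRD. Its stages did not overlap in any kind of fetus, and over all libraries 1 differentiated library (FCD replicate 1) lay above 1 preadipocyte library (FFGR replicate 1). The change was -2.07 ± 0.17 (SE), adjusted p = 6.4e-10, or 4.19-fold, and the SE was among the smallest of the 41 genes. FLNA, the common filamin, fell by 0.86 (adjusted p = 0.0163). The alpha-actinins ACTN1 (-0.37, adjusted p = 0.285) and ACTN4 (0.28, adjusted p = 0.163), palladin (PALLD, -0.51, adjusted p = 0.103) and SYNPO2 (-0.22, adjusted p = 0.743), an actin-binding partner of alpha-actinin, were not called.

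Among focal adhesion and stress fibre proteins, LMO7 and NEXN fell most and PDLIM5, a PDZ and LIM protein that binds alpha-actinin, fell by 1.18 (SE 0.36, adjusted p = 0.0113). LMO7 (chromosome 10, 54662129 to 54880165) encodes a LIM protein of adherens junctions and focal adhesions. It stood at 7079.8, 4552, 6335 and 6202 in MC, 3583, 1203, 7363 and 3806 in FC, 1239, 5978, 3329 and 6599.7 in MFGR and 1478, 817, 1599.9 and 3451 in FFGR. After differentiation its values were 2008, 386, 266 and 215 in MCD, 628, 1374, 1019 and 1184 in FCD, 192, 1283, 1745 and 2253 in MFGRD and 651, 734, 99.4 and 674 in FFGRD. The stages did not overlap in MC, nor in FFGR, where the highest differentiated value was 734 and the lowest preadipocyte value 817. The mean change was -2.29 ± 0.38 (SE), adjusted p = 2.67e-05, or 4.91-fold.

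NEXN (chromosome 1, 58352681 to 58491712) encodes nexilin, a filament-binding protein of adhesions and of the muscle Z-disc. Preadipocytes had 3305, 10300.1, 3046 and 6002 in MC, 15008, 1437, 4570.2 and 4998 in FC, 2033, 1942, 10964 and 10904 in MFGR and 5687, 864, 6962 and 6420.1 in FFGR. Differentiated cells had 1648, 2002, 645 and 649.7 in MCD, 2152, 1029, 1179 and 913 in FCD, 537, 859, 1339 and 1376 in MFGRD and 1367, 1012, 242 and 1266 in FFGRD. The preadipocyte values spread widely, yet the stages overlapped only through FC replicate 2 and FFGR replicate 2, both of low span slope. NEXN changed by -2.16 ± 0.37 (SE), adjusted p = 4.02e-05, or 4.48-fold, and by -2.20 in MC, -1.92 in FC, -2.28 in MFGR and -2.25 in FFGR. Vinculin (VCL, -0.24), zyxin (ZYX, -0.30), talin (TLN1, 0.02) and PDLIM7 (0.15), the proteins that link integrins and stress fibres, were not called, with adjusted p of 0.433, 0.234, 0.974 and 0.629. TLN1 (chromosome 2, 55531488 to 55562985) ends 5.92 kb before TPM2 on the same chromosome, and the log2 fold changes of these neighbours were 0.02 and -2.02.

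Among the control genes, ARHGAP28 (chromosome 23, 44987009 to 45127586), which encodes a GTPase-activating protein, stood at 6410.1, 3205, 5387 and 3417 in MC, 2370.0, 763, 5975 and 4887 in FC, 482, 4306, 3089 and 8682 in MFGR and 2225, 425, 463 and 2277 in FFGR. After differentiation it was at 1926, 146, 845 and 205 in MCD, 744, 272, 2977 and 1505 in FCD, 310.2, 1070.4, 1025 and 2409 in MFGRD and 1459.9, 1297, 115 and 1146 in FFGRD. Its 4 lowest preadipocyte values were those of MFGR replicate 1, FC replicate 2 and FFGR replicates 2 and 3, the 4 preadipocyte libraries of low span slope. It changed by -1.68 ± 0.48 (SE), adjusted p = 0.0082. By kind of fetus the values were -3.23 in MC, -1.47 in FC, -1.52 in MFGR and -0.50 in FFGR. MRTFA, a coactivator of SRF, fell by 0.71 (SE 0.24, adjusted p = 0.0244), and SRF itself stood at 284, 399 and 848 (lowest, median and highest of the 16 preadipocyte libraries) against 281, 406 and 759.7 in the 16 differentiated libraries, a difference of -0.05 with a 95% interval of -0.35 to 0.25. RHOA had a small difference with little spread, -0.40 ± 0.09 (SE), adjusted p = 0.00113, which was under the 1.5-fold threshold. The kinases ROCK1 (0.06) and ROCK2 (-0.15) and the coactivator MRTFB (0.00) had wide intervals, -0.94 to 1.06, -1.28 to 0.98 and -1.09 to 1.08, and these values do not show that they were equal between stages.

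VIM, the intermediate filament protein vimentin of mesenchymal cells, stood at 108743, 204776 and 576791 before differentiation and 23035, 57626 and 139281 after it, a change of -1.87 ± 0.31 (SE), adjusted p = 3.15e-05, or 3.66-fold. The 2 regulators of monomer turnover did not pass the test. CFL1, cofilin, which severs filaments, stood at 2479, 4039.8 and 8035 before differentiation and 2422, 3891 and 11604 after it, and its 95% interval was -0.46 to 0.47. PFN1, profilin, which feeds monomers to growing ends, had an interval of -0.55 to 0.72.

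The markers of contractile cell types moved with these genes in part. Of 6 smooth muscle and pericyte markers, 5 passed the filter. DES (desmin) and CSPG4 were called lower, at -3.43 (adjusted p = 4.6e-05) and -1.81 (adjusted p = 0.0181), and MCAM higher, at 5.07 (adjusted p = 7.94e-09). MYH11, the smooth muscle myosin heavy chain, had a difference of -1.12 (adjusted p = 0.0521) and NOTCH3 of -0.48 (adjusted p = 0.523). RGS5 did not pass the filter. Their summed level ran from 224.6 to 3954.4 in preadipocytes and from 142.1 to 1243.8 in differentiated cells, and no marker of the list was at 0 throughout. The part of such cells in the falls was not tested.

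Contractile genes can be set beside the adipocyte markers in the differentiated libraries. ADIPOQ, the adipokine adiponectin, was lowest among the 16 differentiated libraries in FCD replicate 4 (8.59) and next lowest in MFGRD replicate 4 (146). FCD replicate 4 ranked 4 from the top of the 16 for ACTA2, TAGLN, CNN1 and MYL9 and 3 for TPM2, whereas MFGRD replicate 4 ranked 15 for ACTA2, TAGLN, TPM2 and MYL9 and 14 for CNN1. Without FCD replicate 4 the 18 genes called by the mean over the 4 kinds of fetus were the same 18.

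Within each kind of fetus fewer genes passed, since 4 libraries were set against 4. In MC 5 of 41 were called lower, FLNC, LMO7, PLS3, ARHGAP28 and TPM1, against 4.55% of all genes lower (8.35% either way). In FC 3 were called lower, PLS3, TPM2 and TPM1 (1.44% of all genes lower, 2.52% either way). In MFGR there were 2, FLNC and PLS3 (3.1% lower, 5.13% either way), and in FFGR 7, FLNC, CNN1, NEXN, PLS3, TPM2, VIM and TPM1 (5.99% lower, 10.3% either way). None was called higher, where 3.8%, 1.08%, 2.03% and 4.33% of all genes were. PLS3 was called in all 4 kinds, by -2.10 in MC, -1.65 in FC, -2.06 in MFGR and -2.47 in FFGR, FLNC and TPM1 in 3, TPM2 in 2 and 5 others in 1 each. The medians over the 41 genes were -0.45 in MC, -0.71 in FC, -0.60 in MFGR and -0.67 in FFGR. Every differentiated library lay below every preadipocyte library for 9 of 41 genes in MC, 9 in FC, 6 in MFGR and 6 in FFGR, against 8.7%, 5.13%, 6.4% and 6.58% of all genes. PLS3 and TPM1 were among these in all 4 kinds.

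Replicate numbers were taken, by correlation of these same values, to pair the preadipocyte and differentiated libraries in MC, FC and MFGR, which the labels do not state. Replicate 2 in FC and replicate 1 in MFGR had a low span slope at both stages, while in MC only MCD replicates 2 and 4 did. The part of the span slope in these correlations was not tested. With the replicate block the counts were 9 in MC, 7 in FC and 5 in MFGR, all lower. Over all genes the block called 1824 in MC and 712 in FC, beside 1063 and 321 without it. The count over all genes in MFGR with the block is not given here. The calls gained among the 41 genes were CNN1, NEXN, MYH10 and MRTFA in MC, ACTA2, ACTG2, CNN1 and VIM in FC, and CNN1, NEXN and VIM in MFGR. Single libraries also moved the counts of the 41 genes in the fit without the block. The count in MC was 3 without any 1 of MC replicates 1 to 4 or MCD replicates 3 and 4. In FC it was 0 without FCD replicate 3, 2 without FCD replicate 4, and 1 without any 1 of 16 other libraries. For MFGR it was 4 without FFGR replicate 2, and for FFGR 4 without FFGR replicate 2, 3 without FFGRD replicate 1 and 12 without FFGRD replicate 3. Over all genes, leaving out 1 library gave 662 to 1379 calls in MC and 99 to 429 in FC. In MFGR it gave 392 to 714 and in FFGR 844 to 1619.

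The span slope is defined by how values rise with gene length, so a higher value of long genes where it is higher is built in, and the members' dependence on it is given as a description. Over the 32 libraries, with the groups fitted, 25 of the 41 genes were higher and 16 lower where the span slope was higher. All 18 genes that span at least 50 kb had a positive dependence, and 12 of 14 genes that span under 10 kb a negative one. The long genes MYH10, ROCK1, ROCK2, MRTFB and ARHGAP28 changed by 3.22 (ARHGAP28) to 3.81 (ROCK2) log2 units per unit of slope, whereas the short genes PFN1, TAGLN, TAGLN2, MYL6 and VIM changed by -1.96 (PFN1) to -1.71 (VIM). FFGR replicate 2, a library of low span slope, was the highest of the 16 preadipocyte libraries for 14 genes, ACTA2, CNN1, TAGLN and VIM among them, and the lowest for 12, among them MYH10, ROCK1 and NEXN. FFGRD replicate 3 was the highest differentiated library for 6 genes and the lowest for 14.

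**Figure D3:**
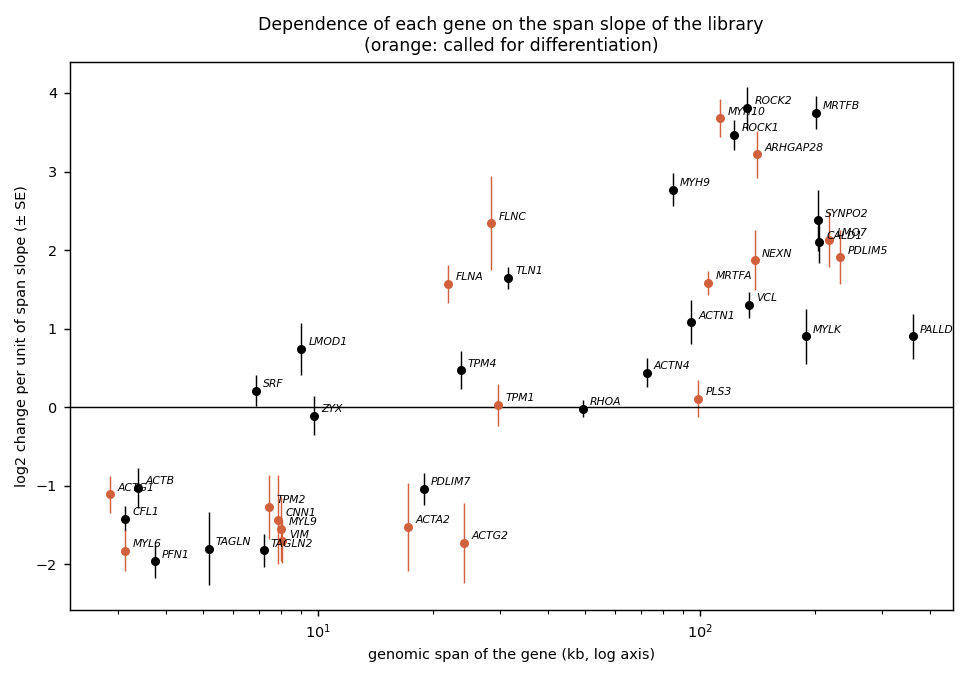
Change in log2 value per unit of span slope (vertical axis, with SE) against the genomic span of the gene in kb (horizontal axis, log scale) for the 41 genes, orange where called for differentiation. Genes of at least 50 kb lie above 0 and most genes under 10 kb below it, and orange genes are found on both sides.

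Since 4 of the 9 such libraries were preadipocyte and 5 differentiated, their effect on the comparison was measured directly. Without them, 24 of 41 genes were called, the 18 named above with CALD1, PALLD, TAGLN, TAGLN2 and ZYX lower and MYLK higher. With the span slope as a covariate 22 were called, the 18 with CALD1, TAGLN and TAGLN2 lower and MYLK higher. Over all genes, 3446 were called without the 9 libraries and 4198 with the covariate, beside 3466 in the first fit. By kind of fetus the counts of the 41 genes without the 9 libraries were 8 in MC, 7 in FC, 9 in MFGR and 8 in FFGR. Over all genes these counts were 1018 in MC and 730 in FC, beside 1063 and 321 in the first fit. Those of all genes in MFGR and FFGR without the 9 libraries are not given here.

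The genes can also be described by their single transcripts. Of 89 transcripts of these genes that were tested, 11 were listed at 0 in all libraries of at least 1 group. They are left out of the counts here, while the shares of all transcripts leave none out. Counts and shares are therefore not filtered alike, and the count over all 89 is given further on. Of the other 78, 30 were called lower and 0 higher in the mean over the 4 kinds of fetus, against 10.8% lower and 9.02% higher among all 19469 transcripts tested. They belong to 20 genes, 2 of which, TAGLN2 and TPM4, were not called by their sum: TAGLN2-202 had medians of 261 before and 91.8 after differentiation (-1.48, adjusted p = 0.0106) and TPM4-201 of 5449.6 and 3239.9 (-0.79, adjusted p = 0.0195). In NEXN, NEXN-203 had medians of 4072 and 511 and fell by 2.84 (adjusted p = 3.57e-06), and NEXN-202 had 966 and 338 and fell by 1.37 (adjusted p = 0.00611). NEXN-201 had medians of 114 and 207, with a difference of 1.13 that did not pass the test (adjusted p = 0.229).

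TPM1, which makes several tropomyosins by alternative promoters and exons, had 7 transcripts. Of these TPM1-201, TPM1-202, TPM1-205, TPM1-206 and TPM1-207 fell, by 1.33, 1.32, 1.37, 1.68 and 1.85, while TPM1-203 (medians 546 and 603, difference -0.10) and TPM1-204 (medians 86.8 and 52.1, difference -0.31) did not pass the test. Differences between the transcripts of a gene were not themselves tested. Both transcripts of FLNC were low after differentiation: FLNC-201 had a median of 1393 before and 61.5 after and was listed at 0 in 4 differentiated libraries, and FLNC-202 had medians of 195 and 0 and was listed at 0 in 5 preadipocyte and 12 differentiated libraries. Salmon divides reads among transcripts that share exons, so values of single transcripts are less certain than their sum.

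**Figure D4:**
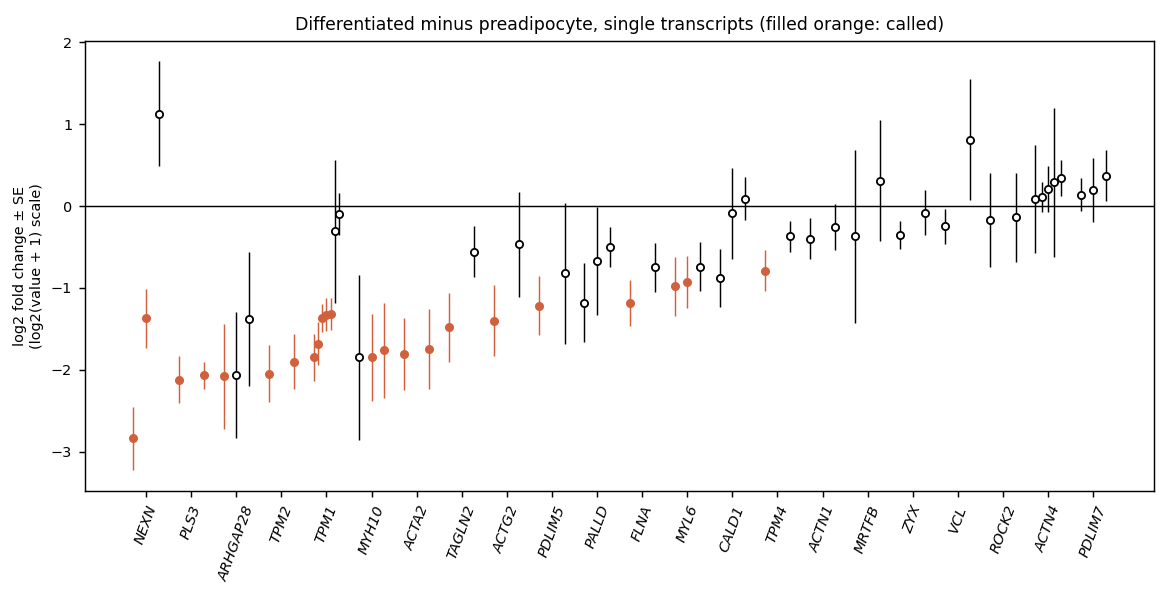
Log2 fold change (vertical axis, with SE, log2(value + 1) scale) of single transcripts, differentiated minus preadipocyte in the mean of the 4 kinds of fetus, for genes with at least 2 tested transcripts (horizontal axis), filled orange where called; transcripts listed at 0 throughout a group are not drawn. NEXN holds 2 filled transcripts below 0 and 1 open one above it, and TPM1 holds 5 filled and 2 open ones.

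Of the other genes of the pathway, a list of 98 names (older names included) that holds none of the 44 under the names used here, 78 were tested. In the mean over the 4 kinds of fetus 19 (24.4%) were lower and 9 (11.5%) higher, with a median of -0.22, beside 14.8% lower and 12.4% higher of all genes. The counts by role are small and were not compared with all genes. Both directions occurred within most roles. Among focal adhesion genes 4 of 11 fell (ENAH, FERMT1, PXN and TGFB1I1) and 2 rose (FERMT2 and TNS1). In monomer turnover 3 of 11 fell (CAP2, CFL2 and DSTN) and 2 rose (GSN and SSH2). Of 10 SRF and YAP related genes CCN2 and TEAD4 fell and CCN1 and EGR1 rose. Of 10 smooth muscle contractile genes CSRP2 and DES fell and SMTN rose. There were also 2 lower (ARPC1A and ARPC1B) and 1 higher (DAAM1) of 13 Arp2/3, formin and capping genes, 3 lower (FHL1, LIMA1 and PLS1) and 1 higher (ACTN2) of 12 LIM and crosslinking proteins, and 1 lower (MSN) of 2 membrane linkers. None of the 78 was called in all 4 kinds of fetus taken alone. These names and the values that follow were picked after the values were seen. CCN2, a matricellular growth factor and known SRF and YAP target, changed by -2.31 (adjusted p = 1.3e-06), and TNS1, tensin 1, which ties integrins to actin, by 1.92 (adjusted p = 0.00621). DSTN, destrin, a relative of cofilin, changed by -1.31 (adjusted p = 0.000102).

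Growth restriction was compared at each stage, in each sex and in the mean of the sexes. None of the 41 genes was called in any of the 6 comparisons, and by limma 0% of the 12737 genes tested were. In preadipocytes the differences between growth-restricted and control cells ran from -1.06 (ARHGAP28) to 0.61 (VIM), and 0 of the 41 had an unadjusted p below 0.05 (344 of all genes did). After differentiation they ran from -1.43 (FLNC) to 0.36 (MYLK), again with 0 of 41 (136 of all genes). The 95% interval lay within a 2-fold change in either direction for 15 of 41 genes before differentiation and 17 after it, and for the rest it reached past a 2-fold change in at least 1 direction. ACTA2 differed by 0.27 (95% interval -1.02 to 1.55) before and 0.00 (-1.29 to 1.28) after differentiation. For PLS3 the values were 0.01 (-0.49 to 0.51) and -0.38 (-0.88 to 0.12), and for RHOA 0.07 (-0.20 to 0.34) and -0.09 (-0.36 to 0.17).

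**Figure D5:**
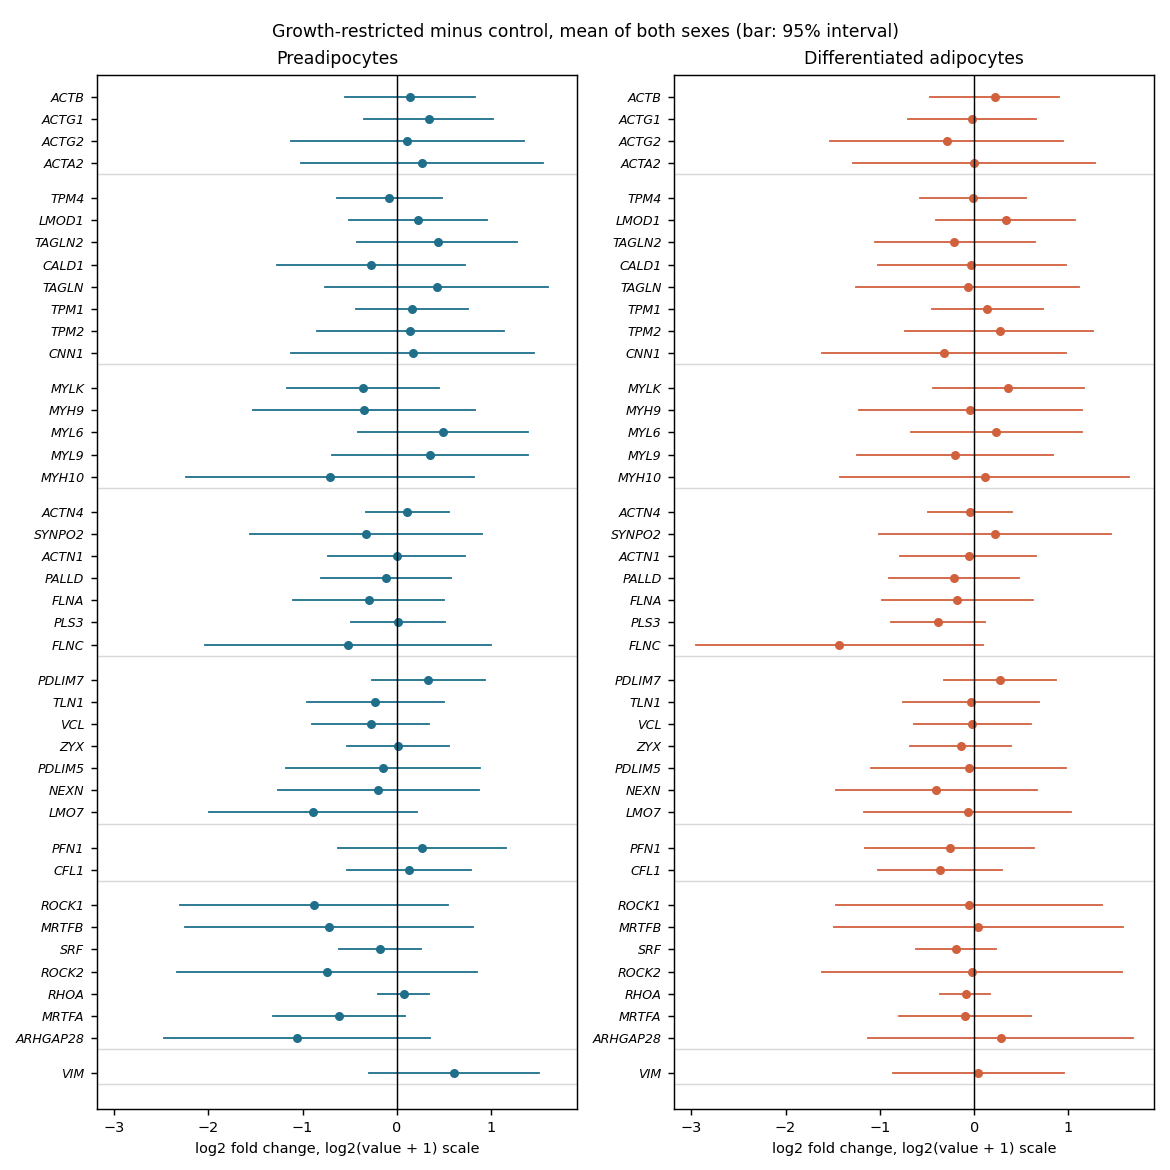
Log2 fold change with its 95% interval (horizontal axes, log2(value + 1) scale), growth-restricted minus control in the mean of both sexes, for the 41 genes in preadipocytes (left) and differentiated cells (right). All intervals cross 0, and they are among the widest for FLNC, MYH10, ROCK1, ROCK2, MRTFB and ARHGAP28.

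FLNC alone passed an unadjusted 0.05 in a growth restriction comparison. In females after differentiation it stood at 152.5, 648, 175 and 307 in FCD and at 25.1, 37.2, 5.84 and 229 in FFGRD, a difference of -2.94 ± 1.05 (SE). Its adjusted p from limma was 1. The groups overlapped through FFGRD replicate 4. In males the difference after differentiation was 0.07 (95% interval -2.08 to 2.22).

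The response to differentiation did not differ by the test between growth-restricted and control cells for any of the 41 genes, nor for any gene (0% of all genes). The difference in response of the 41 ran from -0.91 to 1.34, the latter in ARHGAP28 (-0.65 to 3.33, adjusted p = 0.988). For FLNC in females it was -2.38 (95% interval -5.42 to 0.66). Calls in one kind of fetus and not in another, such as CNN1 in FFGR alone, are therefore not shown to differ between them.

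The sexes were compared within each of the 4 conditions, and no gene was called in any comparison (0% of all genes). The 95% interval lay within a 2-fold change in either direction for 5 of the 41 genes in control preadipocytes and 7 in growth-restricted ones. In differentiated cells it did so for 9 in controls and 5 in growth-restricted fetuses. For the rest it reached past a 2-fold change in at least 1 direction. Among 164 values for the 41 genes, 1 passed an unadjusted 0.05, FLNC in differentiated control cells, which was lower in males (333, 214, 15.9 and 5.84 in MCD) than in females (152.5, 648, 175 and 307 in FCD) by 2.34 on the log2 scale (95% interval of the male minus female difference -4.49 to -0.19). Its adjusted p from limma was 0.955. These groups overlapped. Both FLNC comparisons used the same 4 FCD libraries. In growth-restricted differentiated cells 34 of the 41 genes were higher in males than in females and 7 lay below 0, against 44.6% of all genes below 0. The median was 0.19 against 0.03 over all genes, and 0 of the 41 had an unadjusted p below 0.05. In the other sex comparisons, 21 of the 41 lay below 0 in control preadipocytes, 21 in growth-restricted preadipocytes and 18 in differentiated control cells. The male minus female difference in the response was not called for any gene, in controls or in growth-restricted fetuses. Its 95% interval lay within a 2-fold change for only 1 of the 41 genes in controls and 2 in growth-restricted fetuses.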

How the data were processed

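One table of 32 libraries was used. The signal values deposited by the authors are reads per transcript assigned by them with Salmon to Ensembl transcripts of the Oar_rambouillet_v1.0 build, after discarding reads of mean Phred score under 34, and normalized with DESeq2. The fold change columns (a signed score) and the p-value columns deposited by the authors hold their own DESeq2 comparisons and were not used. The authors' group means were not used either. Signal was summed per gene, and genes with at least 10 in at least 4 libraries were tested. Since values are normalized and not whole reads, no count model was fitted. limma 3.58.1 in R 4.3.3 was run on log2(value + 1) as 1 fit of 8 group means with an empirical Bayes trend, and p-values were adjusted by Benjamini-Hochberg over all genes of a comparison. The procedure was tested on simulated data. Tests were two-sided.

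The genes and lists were chosen with earlier results of these data known. Values per library are given for TPM2, PLS3, NEXN, LMO7, ACTA2, TAGLN, ARHGAP28, the 5 largest falls and the 5 largest rises called, and any gene called for growth restriction, sex or response (no rise and no such gene was called). Libraries were grouped by their labels. Replicate numbers were taken to pair the stages in MC, FC and MFGR. There, deviations from the group means of same-numbered libraries correlated with r of 0.162 to 0.671. MC replicate 2, the lowest at 0.162, correlated better with another number (0.214). In FFGR the numbers were not taken to pair the stages. There r was -0.398 for replicate 2, but 0.331, 0.565 and 0.529 for replicates 1, 3 and 4. FFGR replicates 1 and 2 correlated better with another number (0.353 and 0.681). The labels do not state any pairing. Alternatives were a pseudocount of 0.1, quantile normalization, other filters (no filter, or 20 CPM in 3 libraries), fits on the libraries of a comparison alone, the highest transcript of a gene, the span slope as covariate, a replicate block and each library left out. Leaving out the 9 libraries of low span slope and library weights were added after the data were seen. Promoter motifs were not analysed here, and 1 group of the other pathway genes is not reported here.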

Additional observations from a re-analysis of the deposited data

Results flagged for a closer look

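Within the 72 groups of 4 libraries formed by the 9 genes given per library and the 8 groups, 7 held a library far from the other 3 on the log2 scale (Dixon's ratio above its 95% critical value), where chance flags about 1 in 20 groups. MC replicate 2 was the highest of its group for CNN1 (4818.2), ACTA2 (20923.3) and TAGLN (13470.3), and it was the highest of all 16 preadipocyte libraries for 10 of the 41 genes. FC replicate 2 was the lowest of its group for FLNC (322.7), and FFGR replicate 2 for NEXN (863.8). FFGRD replicate 3 was the lowest of its group for LMO7 (99.4) and ARHGAP28 (114.7). FC replicate 2, FFGR replicate 2 and FFGRD replicate 3 have a span slope below 0.3, and MC replicate 2 does not. Leaving out these 9 libraries of low span slope kept all 18 calls of the mean response.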

How the results depend on the processing

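Over the mean of the 4 kinds of fetus, 16 to 24 of the 41 genes were called under the settings run, and all 18 called genes stayed below 0. MYLK was called higher with the span slope covariate, without the libraries of low span slope, with library weights and without FCD replicate 2. Library weights also gained TAGLN and TAGLN2. ACTG1 and FLNA were lost under quantile normalization, FLNA and MYL6 with the highest transcript of each gene, and MYL6 with no filter and with the filter of 20 CPM. Leaving out 1 library gave 17 to 19, and without FFGRD replicate 3 MRTFA was lost. The replicate block gave 20, with CALD1 and TAGLN gained. Over all genes it called 4030, library weights 3974 and the span slope covariate 4198, beside 3466 in the first fit. By transcript, 34 of 89 were called, 4 of them listed at 0 throughout a group, a count of another kind than 18 of 41 genes.

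Counts within one kind of fetus moved more, and the cause was not tested. In MC, 5 became 3 with no filter, 11 with the span slope covariate, 9 with the replicate block, 8 without the libraries of low span slope and 11 with library weights, and 3 to 6 when 1 library was left out. In FC, 3 became 1 with a pseudocount of 0.1, with no filter and with the highest transcript, 0 on its own libraries, 12 with the span slope covariate, 7 with the replicate block, 7 without the libraries of low span slope and 15 with library weights, and 0 to 3 when 1 library was left out. In MFGR, 2 became 11, 5, 9 and 9 under the last 4 of these settings, and 2 to 4 when 1 library was left out. In FFGR, 7 became 4 with no filter, 2 on its own libraries and 17 with the span slope covariate. The FFGR count was 13 with the replicate block, whose numbers were not taken to pair the stages there. It was 3 to 12 when 1 library was left out. Calls over all genes tested moved as well. In MC, 1063 became 899 with no filter, 2189 with the span slope covariate and 1824 with the replicate block. Without the libraries of low span slope there were 1018, and with library weights 2418. In FC, 321 became 50 on its own libraries, 1583 with the covariate and 712 with the block. Without the libraries of low span slope there were 730, and with library weights 1999. Those of MFGR and FFGR are not given here. When the calls of the 41 genes made in the first fit were followed over the other settings, 1298 were kept, 154 lost and 0 turned. Of these, 708 kept and 30 lost belong to the mean response, and the rest to single kinds of fetus. Calls gained are not part of these counts. The settings include the 32 fits that left out 1 library, which share nearly all libraries with the first fit. Each call is therefore counted many times, and the totals are a description and no separate evidence. Growth restriction, sex and response comparisons called 0 of the 41 genes under every setting, the replicate block included. At most 15 genes of all were called there when 1 library was left out (MCD against FCD, without MCD replicate 1). The promoter search for the SRF motif was not run.

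With 4 libraries a group, the interval of ROCK2 for growth restriction in differentiated cells (-1.61 to 1.57) reached past a 2-fold change each way. The depth in reads is not known exactly, and values of a few normalized reads, such as FLNC in MCD replicate 4 and FFGRD replicate 3 (5.84 each), are known to within a few reads only.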
